A study of Drosophila melanogaster with 3 samples.

Results

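*ush* (*u-shaped*, FBgn0003963) lies on chromosome arm 2L of the dm6 genome from 476220 to 540560, on the plus strand, and 14 reproducible ChIP-seq summits of GFP-tagged Zen fell in it or within 2 kb of its ends. The gene was taken up for its many summits with earlier results of these data known, so its number of summits is a description and carries no test. A summit is the position of highest signal in a called peak. Members were every summit between 474220 and 542560 in each deposited list. The reproducible set, kept by the irreproducible discovery rate (IDR), gave 14, which is 0.189% of that set. The list of the pooled libraries gave 40 of 30000, and the lists of replicates 1, 2 and 3 gave 38, 37 and 41 of 30000 each.

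The libraries came from a transgenic *Drosophila melanogaster* line that stably expresses Zen with GFP fused to its C terminus. Whole embryos of both sexes aged 0 to 4 h were used in 3 biological replicates, which form 1 group with no second condition. The precipitation used an antibody to GFP per the sample descriptions, although the antibody field of the same labels names zen. The labels do not give the promoter of the transgene or the state of the resident *zen* gene, and no library without the tag was analysed here, so signal that does not depend on the tagged protein cannot be told apart from binding of Zen. Embryos were whole, so a summit cannot be assigned to the dorsal cells that normally make Zen. The lists hold no read counts, and the depth of each library is unknown.

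*ush* encodes a zinc-finger protein of the Friend of GATA family. It binds GATA factors such as Pannier and changes, often by repression, what they do at their target genes. In the embryo it is expressed on the dorsal side under the control of the BMP ligand Dpp, and it is 1 of the genes needed to keep the amnioserosa, the extraembryonic tissue specified by *zen*, and to retract the germ band. Zen is a homeodomain protein, and such proteins commonly read sequences with a TAAT core. Zelda, the early activator of the zygotic genome, reads sites with the core CAGGTA.

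The annotation lists 5 *ush* transcripts with 4 starts. ush-RD and ush-RE begin at 476220, ush-RB at 490835, ush-RA at 523466 and ush-RC at 523736. The long exons with most of the coding sequence lie at the far end of the gene, from 536023 onwards. *cbt* (*cabut*), which encodes a zinc-finger transcription factor needed for dorsal closure, lies inside the first *ush* intron on the opposite strand, from 476446 to 479688. The noncoding RNA genes lncRNA:CR46258 and lncRNA:CR46259 also lie within *ush*. The neighbours are *MED15*, which ends 50 bp before *ush*, and *lwr*, which ends 39 bp after it.

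The windows below carry the 2 stretches with strong signal. Each is the plus strand within 100 bp of an IDR summit, from the RefSeq copy of genome release 6 (dm6 coordinates). Capitals mark the cores TAAT, read on the other strand as ATTA. They also mark the Zelda core CAGGTA, whose reverse complement is TACCTG, and the GATA factor site GATAAG, whose reverse complement is CTTATC. The first pair lies upstream of *cbt* and the other 3 lie upstream of the ush-RA start. The summit at 518746 adjoins the window of 518545 and is not shown.
Summit 481103, chr2L:481003-481203: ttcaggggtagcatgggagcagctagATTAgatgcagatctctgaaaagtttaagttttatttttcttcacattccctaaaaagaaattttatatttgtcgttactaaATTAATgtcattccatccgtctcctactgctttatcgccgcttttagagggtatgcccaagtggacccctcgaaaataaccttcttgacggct
Summit 480062, chr2L:479962-480162: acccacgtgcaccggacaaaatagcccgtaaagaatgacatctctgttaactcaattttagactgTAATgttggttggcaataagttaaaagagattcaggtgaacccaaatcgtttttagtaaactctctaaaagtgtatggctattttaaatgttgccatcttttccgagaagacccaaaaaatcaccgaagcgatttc
Summit 518545, chr2L:518445-518645: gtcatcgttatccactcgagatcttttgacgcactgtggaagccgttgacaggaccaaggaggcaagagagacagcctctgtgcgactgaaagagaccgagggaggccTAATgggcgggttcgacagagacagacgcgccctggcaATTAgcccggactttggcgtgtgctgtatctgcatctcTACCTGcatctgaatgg
Summit 519376, chr2L:519276-519476: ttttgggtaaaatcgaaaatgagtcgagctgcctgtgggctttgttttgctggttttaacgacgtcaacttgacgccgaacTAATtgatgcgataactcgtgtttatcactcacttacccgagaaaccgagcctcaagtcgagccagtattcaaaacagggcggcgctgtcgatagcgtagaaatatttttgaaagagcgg
Summit 522114, chr2L:522014-522214: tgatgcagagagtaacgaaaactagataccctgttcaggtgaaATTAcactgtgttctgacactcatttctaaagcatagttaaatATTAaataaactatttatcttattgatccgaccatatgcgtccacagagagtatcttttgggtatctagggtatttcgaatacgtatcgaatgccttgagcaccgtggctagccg

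The window of 481103 held 3 TAAT cores, of which 2 overlap as ATTAAT. Those of 518545 and 522114 held 2 each, and those of 480062 and 519376 held 1 each. The window of 518545 also held 1 CAGGTA site, read as TACCTG. None of the 5 windows held GATAAG or the full palindrome TAATTA.

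The 14 summits fell into 2 main stretches of the gene, with few between them. When summits no more than 3 kb apart were joined, 5 groups resulted. The first held 3 summits over 1891 bp, from 480062 to 481953, just upstream of *cbt*. The last held 8 summits over 7533 bp, from 516243 to 523776, which ends at the starts of ush-RA and ush-RC. The 3 remaining groups were single summits at 485870, 490215 and 510646. The widest gap was 20431 bp, between 490215 and 510646, downstream of the ush-RB start. From the ush-RC start to the end of the gene, 16825 bp that hold most of the coding sequence, the IDR set had 1 summit, which lay 40 bp from that start.

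**Figure D1:**
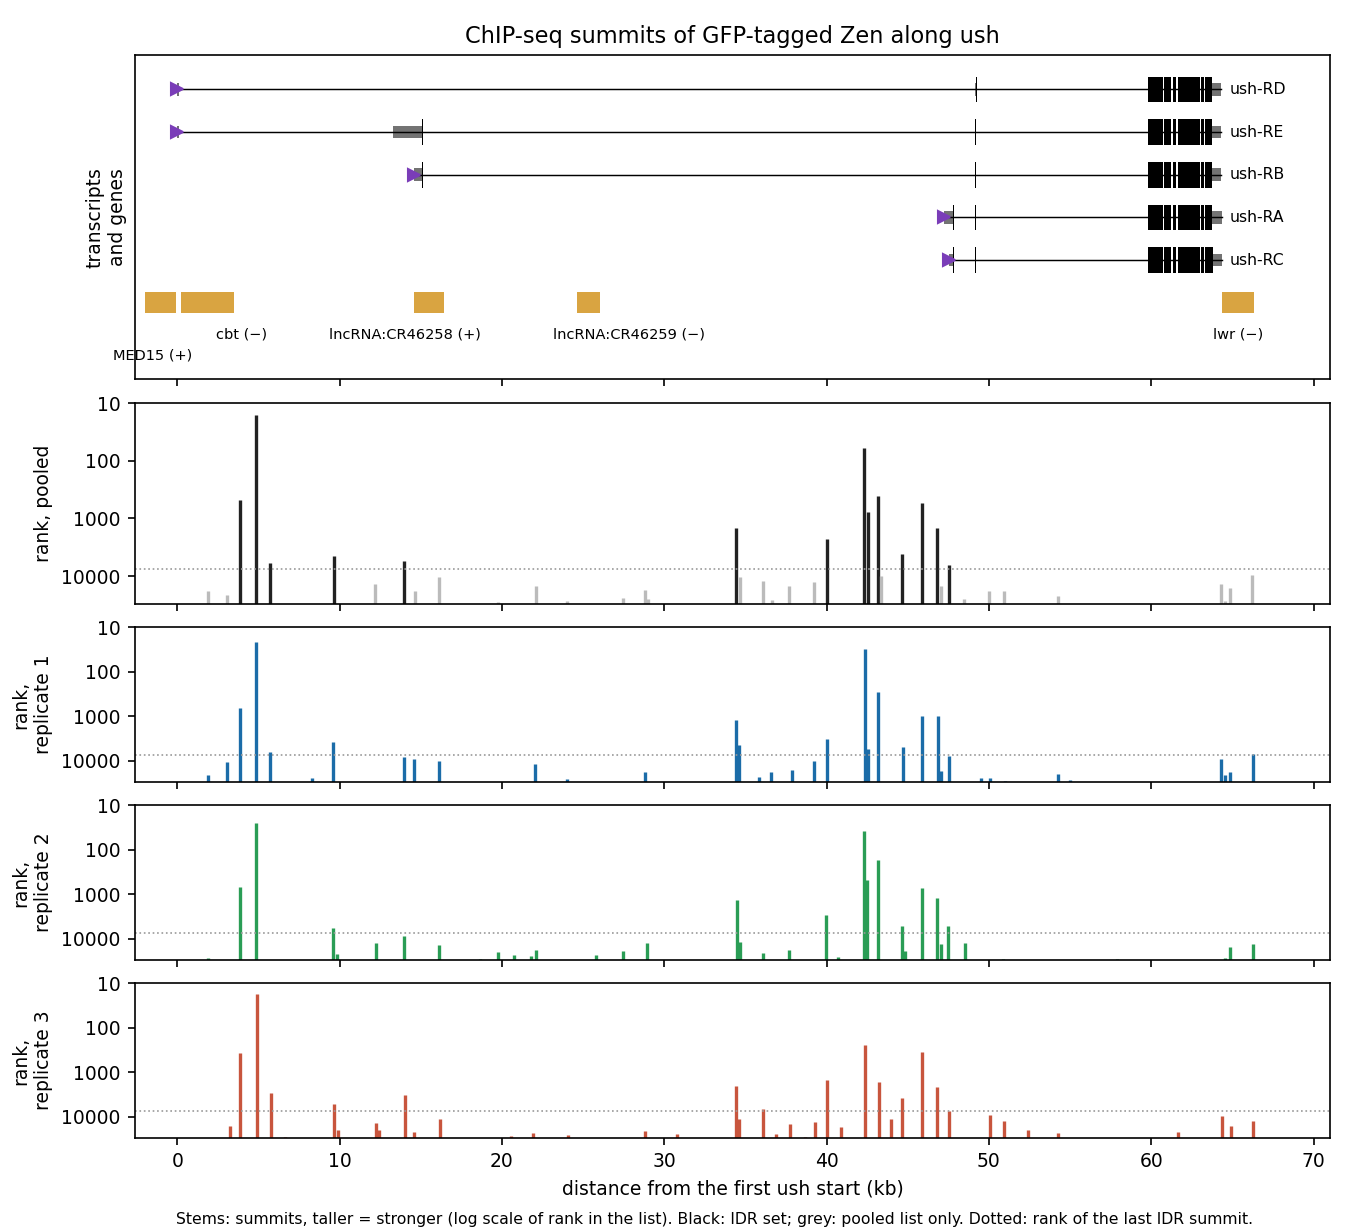
Map of the *ush* locus with the distance from the first *ush* start in kb on the horizontal axis. The upper panel shows the 5 *ush* transcripts (black, coding; grey, untranslated; triangles, starts) and other genes (ochre); the lower panels show each summit as a stem whose height is its rank in the pooled list or in a library (log scale), with the IDR set in black. In every list the 2 tallest stems are the summits at, or within 100 bp of, 4883 and 42325 bp from the first start.

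The strongest summit of the locus lay at 481103, in an interval of 418 bp, and ranked 16 in the IDR set when these were ordered by the authors' signal value. It ranked 21 in replicate 1, 25 in replicate 2 and 17 in replicate 3, a mean of 21.0 ± 4.00 (SD, n = 3). The replicates thus placed it within 8 ranks of each other among 30000 summits. It lies in the first *ush* intron, 4883 bp downstream of the first *ush* start and 1415 bp upstream of the *cbt* start. Its neighbour at 480062, which ranked 469, lay 374 bp upstream of *cbt* and 3842 bp from the first *ush* start. The libraries ranked that neighbour 638, 693 and 378 (570 ± 168, SD, n = 3). Both summits also fall in the *cbt* territory, and the peak lists do not say which gene they act on. The third summit of the group, at 481953, was weak, at rank 5910. It ranked 6454 in replicate 1 and 2929 in replicate 3, and no summit of replicate 2 lay within 100 bp.

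The group before the ush-RA start was led by a wide interval, from 518014 to 519766, that held 3 of the 14 IDR summits. Its strongest summit, at 518545, ranked 60 in the IDR set and lay 4921 bp upstream of ush-RA. The libraries ranked it 30, 38 and 248 (105 ± 124, SD, n = 3). The summit at 519376 ranked 400, and 286, 174 and 1699 in the libraries (720 ± 850, SD, n = 3). Between them, the summit at 518746 ranked 758, with ranks of 5456 and 490 in replicates 1 and 2 and no counterpart within 100 bp in replicate 3. It stood close to its neighbour at 518545, and 199 bp was the smallest spacing between summits anywhere in the pooled list. For all 3 summits replicate 3 gave the lowest standing or none, and the replicates spread more widely than at 481103.

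Closer to ush-RA, the intervals at 520897, 522114 and 523043 were 416, 295 and 399 bp wide, against 1753 bp for the wide interval. Their largest library rank was 1.40, 2.93 and 2.18 times the smallest, in that order, against 8.27 times at 518545. By SD their ranks spread more than at 518545 (124) and less than at 519376 (850). The summit at 522114, 1352 bp upstream of ush-RA, ranked 547 in the IDR set and 1014, 736 and 346 in the libraries (699 ± 336, SD, n = 3). At 523043, 423 bp upstream of ush-RA, the IDR rank was 1474 and the library ranks were 988, 1203 and 2155. At 520897 the IDR rank was 4150, with library ranks of 4942, 5198 and 3720. The replicate with the best standing changed from summit to summit: replicate 3 led at 522114 and 520897, and replicate 1 at 523043.

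The remaining summits ranked from 1476 to 6486 in the IDR set. At 510646, 12820 bp upstream of ush-RA, the IDR rank was 1476 and the library ranks were 1240, 1345 and 2070. At 516243 the IDR rank was 2244 and the library ranks were 3321, 2994 and 1532. At 485870 the IDR rank was 4382 and the library ranks were 3918, 5874 and 5317. These 3 were found by every library among its strongest summits, counting as many as the IDR set holds. The 2 summits in annotated 5' UTR exons were at the weak end: 490215, 620 bp upstream of ush-RB, ranked 5484, and 523776, 40 bp downstream of the ush-RC start, ranked 6486. The libraries ranked 490215 at 8248, 8766 and 3235, and 523776 at 8081, 5168 and 7439, so only replicate 3 placed the former and only replicate 2 the latter among that many.

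**Figure D2:**
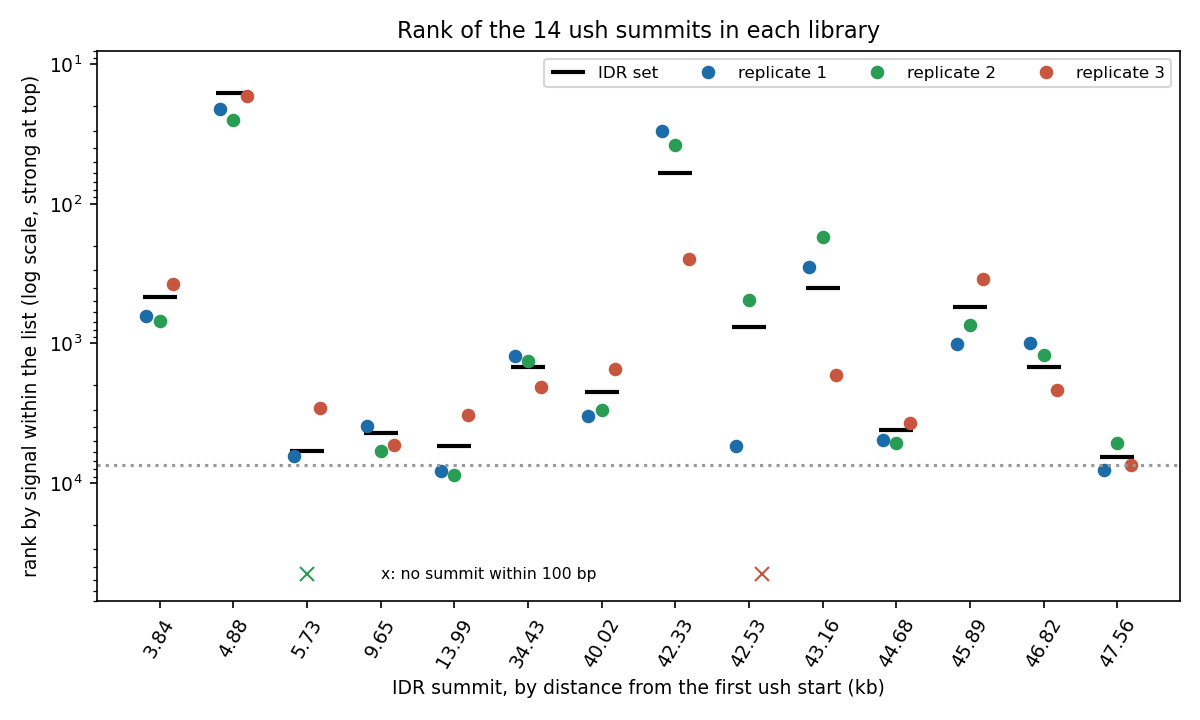
Rank of each of the 14 *ush* summits within its list (log scale, strongest at the top), by distance from the first *ush* start in kb. Bars are ranks in the IDR set, points are the 3 libraries, crosses mark a library with no summit within 100 bp, and the dotted line is the rank of the last IDR summit; the points 4883 bp from that start lie between ranks 17 and 25, those at 43156 bp between 174 and 1699.

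The starts of *ush* differed in the signal beside them. An annotated start of any gene was no more than 500 bp away for 3 of the 14, against 47.6% of all IDR summits, and 1 of these 3 was at *cbt*. The first start, at 476220, had no close summit: the nearest summit of the pooled list was 1903 bp away at rank 18096, and the nearest of the libraries lay 1906, 1871 and 3200 bp away. The ush-RB start at 490835 had a pooled summit 4 bp away, at rank 18376, outside the IDR set. It had summits within 2 bp at rank 9450 in replicate 1 and rank 22229 in replicate 3, and in replicate 2 the nearest was 657 bp away. For the ush-RA start, the nearest pooled summit was 523243, 223 bp upstream at rank 14792 and outside the IDR set. The nearest IDR summit was 523776, 310 bp downstream at rank 6486. The stronger summit at 523043 lay 423 bp upstream, at rank 1474, and every library placed it among its strongest summits. The ush-RC start had the summit at 523776, which replicate 2 placed 13 bp upstream of the start. In feature classes, 12 of the 14 summits were intronic, 2 were in 5' UTR exons and 0 in coding sequence. Most of the gene is itself intron, and the classes were not counted over all IDR summits, so these counts only describe the layout.

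The libraries found most of the 14 summits on their own. Within 100 bp, 12 of 14 had a counterpart in the full lists of all 3 libraries, where 88.3% of all IDR summits did, a share like that of *ush*. Among each library's strongest summits, again as many as the IDR set holds, 10 of 14 did, against 57.7% of all IDR summits. The 4 without were 481953, 490215, 518746 and 523776. The IDR set was made from these libraries, so neither count is independent of the choice of summits. The libraries placed 14, 12 and 13 of these strongest summits in the territory, a mean of 13 ± 1 (SD, n = 3), and each had 12 that lay within 100 bp of an IDR summit. The others were in replicate 1 at 510858 (rank 4419) and at 542487, next to *lwr* (rank 7285), and in replicate 3 at 512276 (rank 6706).

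Offsets of matched summits were bound to be small beside the median peak widths, because a match had to lie within 100 bp. Their size therefore does not show how precisely the libraries placed a summit. The summits at 481953 and 518746 are left out, since the former had no match in replicate 2 and the latter none in replicate 3. Over the 12 summits with a counterpart in every library, 9 had all 3 offsets within 50 bp. At 480062 replicates 1 and 3 lay 1 and 0 bp away and replicate 2 lay 28 bp away. At 481103 replicate 1 lay 50 bp to the left, replicate 2 lay 31 bp to the left and replicate 3 was 2 bp to the right. The interval at 480062 was 294 bp in the pooled libraries and 245, 215 and 264 bp in replicates 1, 2 and 3. The 5 weakest of the 14 summits all had intervals of 416 bp, which is the median width of the IDR set. The median was 430 bp in replicate 1, 430 bp in replicate 2 and 360 bp in replicate 3. The interval around 518545 was 1762 bp wide in replicate 1, 1043 bp in replicate 2 and 725 bp in replicate 3. Every IDR summit carried the same −log10 q-value in the authors' lists, 4.18, so this column does not order them. In the library lists the counterparts were at the list's maximum except 490215 (2.90 in replicate 1 and 2.43 in replicate 2), 523776 (2.98 in replicate 1) and 481953 (3.63 in replicate 1).

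The order of the summits was similar in replicates 1 and 2 and less so in replicate 3. Over the 12 summits with a rank in every library, Spearman's rho was 0.965 between replicates 1 and 2, 0.825 between 1 and 3 and 0.846 between 2 and 3. These are descriptions: the summits are neighbours in 1 locus and were called in part from the same data. Replicate 3 ranked some of the 12 better and others worse than replicates 1 and 2, and its largest drops were in the wide interval. The log2 ratio of the rank in replicate 3 to the geometric mean rank in replicates 1 and 2 was 2.88 at 518545 and 2.93 at 519376. In the other 10 summits it lay between −1.39 and 0.98. Over the 6542 IDR summits ranked in every library its median was −0.18 (quartiles −0.83 and 0.66), and 5.37% had a ratio of 2 or more, which is a rank at least 4 times as late. Among the 971 of these with an IDR rank of 1000 or better, as 518545 and 519376 had, the share was 17.0%.

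Base composition and peak width moved with that difference, and their part in it was not tested. GC content within 100 bp was 55.7% at 518545, 50.7% at 518746 and 45.8% at 519376, against a median of 39.8% over the 14 *ush* summits and 38.3% over all IDR summits. The *ush* summits at 485870 and 523776 had GC contents of 49.8% and 51.2% and ratios of 0.15 and 0.20. Across the 6542 summits, the ratio and GC content had a Spearman's rho of 0.480, a description over sites of the same libraries. The ratio was 2 or more at 13.7% of summits with at least 45% GC and at 2.30% of the others. Of the 36 such summits in intervals of at least 1000 bp, 20 had a ratio of 2 or more, and their median was 2.35.

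**Figure D3:**
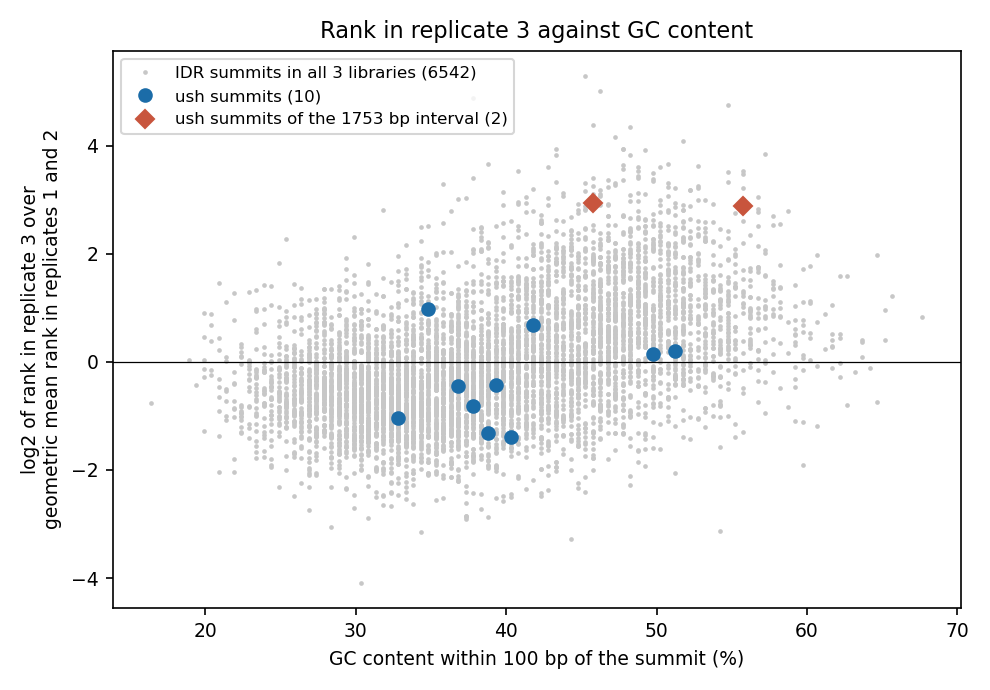
Log2 ratio of the rank in replicate 3 to the geometric mean rank in replicates 1 and 2, against GC content within 100 bp of the summit (%), for the 6542 IDR summits ranked in all 3 libraries (grey) and the *ush* summits (coloured). The 2 diamonds, summits of the wide interval, lie at 2.88 and 2.93; the 10 circles lie between −1.39 and 0.98.

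The *ush* summits held TAAT cores without TAATTA. Motifs were counted on both strands within 100 bp of the summit. All 14 summits had at least 1 TAAT core, as did 91.4% of all IDR summits. Their mean was 2.29 cores per window, against 3.34 over all IDR summits, and the highest count was 6, at 516243. TAATTA was in 0 of 14 windows and in 18.6% of all IDR windows; with 14 windows, the difference was not tested. TAATTA was present at 7 of the 26 pooled summits of the territory that lay outside the IDR set, the best of them at rank 9630, next to *lwr*. Its share over all pooled summits outside the IDR set was not counted, so no contrast with the 14 is drawn. Windows were also placed 1000 bp on either side of the 14 summits. TAATTA occurred in 2 of these 28, against 11.7% of such windows around all IDR summits. Some of the 28 cover another *ush* summit, since neighbours such as 480062 and 481103 lie 1041 bp apart.

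Sites for other factors were found at some of the summits, and 3 summits held more than 1 kind. The Zelda core lay with GAGAGA at 518545 and 516243, the former also with TGACAG, and 523043 held the GATA site beside TGATNNAT. How many of all IDR windows hold more than 1 kind was not counted, so these combinations are only listed. CAGGTA was in 2 of 14 windows, at 518545 and 516243, against 10.2% of all IDR windows. At 516243 the site lay 13 bp left of the summit. GATAAG was also in 2 of 14, at 485870 and 523043, against 10.8%, and TGATNNAT, a site of Hox proteins with the cofactor Extradenticle, was in 1 of 14, at 523043, against 12.6%. GAGAGA, the sequence read by GAGA factor, was in 3 of 14 against 10.2%. Of its 11 matches 9 were at 510646, read as TCTCTC: 1 stood alone 18 bp to the right of the summit, and the others overlapped in a run from 39 bp to the right. GGCGCC, a core of the sites of the Dpp-regulated repressor Brinker, was in 1 of 14, with 2 matches at 490215, against 3.74% of all IDR windows. TGACAG, read by Homothorax, was at the neighbouring summits 518545 and 518746, against 8.22%. CACGTG was at 480062 alone, against 2.57% of all IDR windows, and TATCGATA was at none, against 5.23%. These are matches of letters, and no binding of those factors was measured.

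The 3 windows below, of 70 bp on either side of the summit, show these sites in capitals: TCTCTC at 510646, GGCGCC at 490215 and CAGGTA at 516243.
Summit 510646, chr2L:510576-510716: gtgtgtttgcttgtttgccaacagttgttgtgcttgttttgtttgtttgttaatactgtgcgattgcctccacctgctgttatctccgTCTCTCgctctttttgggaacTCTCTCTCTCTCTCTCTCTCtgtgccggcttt
Summit 490215, chr2L:490145-490285: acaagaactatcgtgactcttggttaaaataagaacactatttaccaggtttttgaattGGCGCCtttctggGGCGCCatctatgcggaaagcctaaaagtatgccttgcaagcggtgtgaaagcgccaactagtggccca
Summit 516243, chr2L:516173-516313: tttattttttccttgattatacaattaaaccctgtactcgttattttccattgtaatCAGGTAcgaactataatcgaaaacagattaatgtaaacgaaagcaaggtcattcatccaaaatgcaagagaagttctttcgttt

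Outside the IDR set, the pooled list held 26 further summits in the territory, at ranks from 9630 to 27953 with a median of 17504. Of these, 6 had a counterpart within 100 bp in all 3 libraries, 13 in a pair of libraries, 5 in a single library and 2 in none. The same shares over all pooled summits outside the IDR set were not counted. Of the 26, 2 lay within the interval of an IDR summit, and others filled parts of the gene with no IDR summit. Between the ush-RB and ush-RA starts the pooled list held 23 summits, 8 of them in the IDR set, and from the ush-RC start to the end of the gene it held 6, of which 1 was in the IDR set. The 2 kb before the first *ush* start held 0 summits in every list. The outermost IDR summits inside it lay 5841 bp from the left edge and 18785 bp from the right edge. The nearest outside were at 472468, 1753 bp to the left of the territory near the start of *CG4297* (rank 2181), and at 568282, 25721 bp to the right at *Sf3b1* (rank 3794). In the pooled list a summit at rank 9630, next to the *lwr* start, lay 116 bp inside the right edge and had a counterpart in every library, and the next lay 999 bp outside it (rank 24683).

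Among protein-coding genes *ush* ranked 14th by number of IDR summits, level with the Hox gene *Ubx*. Of 13945 such genes, 46.8% had a summit in the gene body or 2 kb on either side, and 15 genes (0.108%) had 14 or more. The libraries alone ranked *ush* 13th, 24th and 13th. It held 2.05 summits per 10 kb, against 0.553 over the chromosome arms, and by summits per kb it ranked 2041st of the 13945 genes. Long genes can hold more summits, and 197 genes were longer. Of the 165 genes within 20% of its length, *ush* included, the median was 2 summits (quartiles 0 and 4), 4 had more and 1 had as many. A pair of its summits were among the 100 strongest of the IDR set, which held for 5 genes (0.0359%): *ush*, *Atat*, *CG4004*, *CG42342* and *ph-p*. The *ush* pair includes the summit upstream of *cbt*.

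The 5 genes most like *ush* were those of similar length with the nearest number of summits. *Ubx* had 14 summits, the Ets-domain gene *pnt* and *CG46458* 13 each, *CG12535* 12 and the Dpp pathway gene *shn* 16. Per 10 kb they held 1.71, 2.17, 1.97, 1.85 and 2.57 summits, in the same order. Their strongest summits ranked 823, 1203, 188, 581 and 138, all later than rank 16. None of them had a summit among the 100 strongest. *CG46458* lies within *Antp*, so its 13 summits are also counted among the 21 of *Antp*. Among the libraries' strongest summits, *Ubx* had 13, 14 and 10 summits and *pnt* had 12, 9 and 13.

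**Figure D4:**
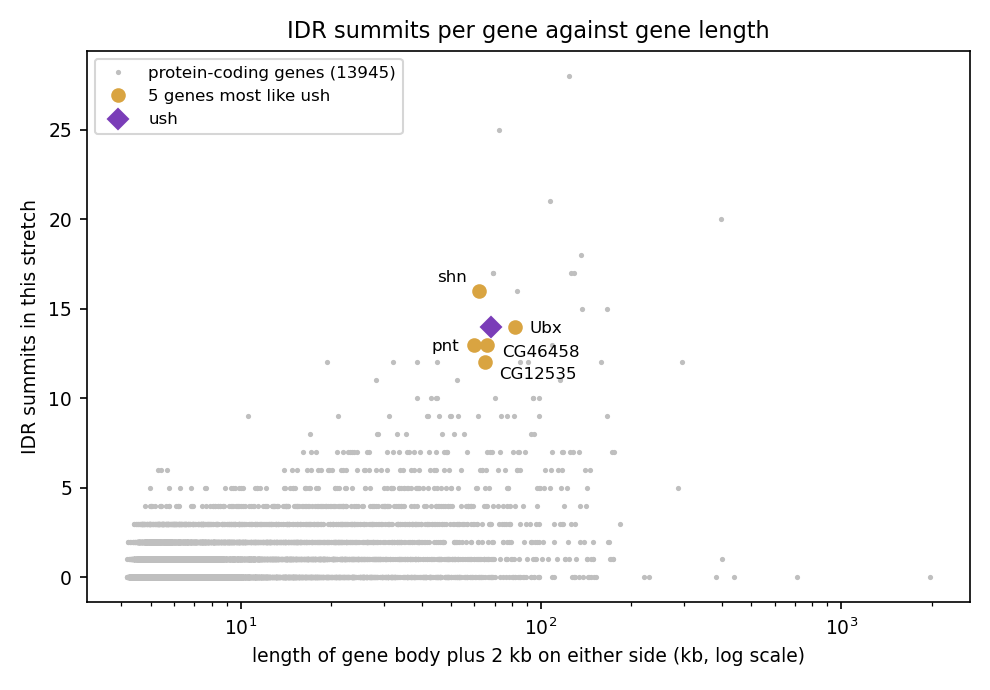
Number of IDR summits in the gene body and 2 kb on either side against the length of that stretch (kb, log scale) for 13945 protein-coding genes (grey). *ush* (diamond) lies at 14 summits, and the 5 genes most like it (ochre) at 12 to 16.

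Of 21 partner, target and pathway genes of *ush* and early regulators, 17 had at least 1 IDR summit, with a median of 2, where 46.8% of all protein-coding genes had 1. The list was written from textbook knowledge with earlier results known and carries no test. Territories of the 21 genes ran from 4917 bp (*ac*) to 62309 bp (*shn*), and long genes can hold more summits. The share was not counted over genes of like length, so no excess is drawn from it. Among the GATA factor genes, *pnr* held 6 summits (strongest rank 36), *srp* 6 (rank 757), *grn* 3 (rank 1419) and *GATAd* 3 (rank 3060), and *GATAe* had none. In the Dpp pathway, 6 of 7 genes had a summit, led in number by *shn* with 16 and the ligand gene *dpp* with 8 (strongest rank 939), and *scw* had none. Of 5 genes known as partners or targets of Ush in the thorax, *CtBP*, *ac* and *wg* had 1, 2 and 3 summits, none ranked better than 4225, and *Chi* and *sc* had none. The germ band retraction genes *tup* and *peb* held 3 and 1. Zen's own gene *zen* had 3 summits and the Zelda gene *zld* 9 (strongest rank 299).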

How the data were processed

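3 ChIP-seq libraries of 1 group were analysed. Per the deposited notes on each file, the authors made 1 peak list per library and 1 from the pooled alignments, all on dm6 and with 1 control alignment in common, and drew the IDR set from those 4 lists. Neither aligner nor peak caller is named in the sources used here. Column 7 of each deposited list is the authors' signal value, a score on a scale of its own in every list, and served here to order summits. The deposited −log10 q-value was not tested.

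Summits were column 2 plus column 10, given here counted from 1. Signal ranks covered each full list. Python 3.11.15, pandas 2.3.3 and NumPy 2.4.6 were used, with the Ensembl release 115 annotation and the RefSeq genome release 6, which share dm6 coordinates. A match was a summit within 100 bp. A territory was the gene body plus 2000 bp on either side. Motif windows reached 100 bp to either side, and 10 motifs were searched. Steps were tested on simulated data. With 1 group and a gene chosen with results known, no significance test was run.

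The named genes were *ush* with its summits, overlapping and adjacent genes, the 5 genes of a length within 20% and nearest in summits, and a list of 21 partner and pathway genes; other genes were named after their values were seen. Members and lists were chosen with earlier results of these data known. *vfl* was matched as *zld*. Alternatives covered territory, list size, match distance, motif window, start distance, joining gap and each replicate left out.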

Additional observations from a re-analysis of the deposited data

How the results depend on the processing

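Of 42 alternative settings, 32 left their value within the spread between libraries or within 1.5 times, and 10 did not. The number of *ush* IDR summits (14) was 9 in the stronger 3702 summits and 24 in the strongest 14810 of the pooled list. The mean per library (13) was 38.7 over full lists and 9 with 3702 summits a list. The place of *ush* among genes (14th) was 2041st by summits per kb and 24th in replicate 2 alone. TAATTA was in 1 window of 200 bp to either side, CAGGTA in 1 of 50 bp, 1 summit lay within 200 bp of a start, and joining gaps of 5 kb left 3 groups in place of 5. Leaving out a replicate gave 10 to 11 summits. These were pooled summits matched in both remaining libraries among their strongest, as many as the IDR set holds. The mean per library was then 12.5 to 13.5, with 12 to 13 matched summits and mean ranks of 19.0 to 23.0 for the strongest. Counting only summits whose nearest start is one of *ush*, chosen after seeing the data, gave 10. No paired analysis was possible because there is 1 group. Depth is unknown, and no counting error could be given.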
